A study of Mus musculus with 4 samples.

Results

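Long noncoding RNAs and the RNAs that host small nucleolar RNAs (snoRNAs) were examined in group 2 innate lymphoid cells (ILC2s) treated with deoxycholic acid (DCA), a bile acid made by gut bacteria. The genes were taken by symbol from the deposited count table, and all 9 were found among its 27179 rows: the nuclear RNAs Malat1 and Neat1, and the snoRNA hosts Gas5, Snhg1, Snhg3, Snhg5, Snhg6, Snhg8, and Snhg12. The large intestine of WT C57BL/6 mice gave the ILC2s, sorted as CD45.2+Lin-CD127+KLRG1+ cells, and the paper's methods give an age of 6 to 8 weeks, and name both sexes in one place and males alone for C57BL/6J in another. All cells were grown for 5 days with cytokines at 10 ng/mL, namely IL-33, IL-25, IL-7, and IL-2. They were then given 100 μM DCA or kept as controls, for 16 hours by the deposited design text and 24 hours by the paper's methods. The control libraries are titled Ctrl and are called vehicle here. The paper's methods for RNA-Seq do not say what the control cells received. There were 2 libraries per treatment, and no label says whether they came from separate mice or cultures, so that the spread between them may be technical.

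snoRNAs guide the chemical modification of ribosomal and other RNAs. Most are cut from introns, and in host genes such as Gas5 and Snhg1 the spliced exons encode no known long protein. The spliced hosts reach ribosomes, terminate translation early, and are cleared by nonsense-mediated decay, so that in other systems they build up when translation or the decay factor UPF1 is blocked. Gas5 was named for its accumulation in growth-arrested cells. Malat1 lies at nuclear speckles, and Neat1 is the scaffold of paraspeckles, nuclear bodies that form around it and hold RNA-binding proteins.

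Host RNAs of this kind often begin with a pyrimidine tract, as ribosomal protein mRNAs do. The sequences around the start sites are shown because the hosts were later compared with ribosomal protein RNA. RefSeq starts on GRCm38.p6 were matched for 7 of the 9 genes, with 2 starts for Gas5. Neat1 and Snhg6 were not matched. Each line gives 30 bases before the start and 20 from it on, 5′ to 3′ on the gene's strand, with capitals for a run of pyrimidines that begins with C.
Gas5 (chr1:161035136-161035185, plus strand): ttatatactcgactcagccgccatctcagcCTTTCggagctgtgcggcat
Snhg8 (chr3:123508317-123508366, minus strand): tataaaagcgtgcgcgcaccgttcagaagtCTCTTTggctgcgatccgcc
Snhg12 (chr4:132308648-132308697, plus strand): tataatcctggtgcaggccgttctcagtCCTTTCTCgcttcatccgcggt
Snhg5 (chr9:88522878-88522927, minus strand): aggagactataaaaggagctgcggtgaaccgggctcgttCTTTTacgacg
Snhg1 (chr19:8723457-8723506, plus strand): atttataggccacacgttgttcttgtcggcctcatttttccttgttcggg
A C at the start itself followed by at least 4 pyrimidines was found at 2 of the 7 starts of the 6 matched hosts, in Gas5 and Snhg8. The same was true of 2.46% of the 11193 starts of genes tested here and of 20.6% of the 68 starts matched for 58 ribosomal protein genes. When such a run could begin up to 10 bases before or after the annotated start, 5 of the 7 host starts had one, against 32.0% of the starts of genes tested and 54.4% of those of ribosomal protein genes. This wider window was chosen after the sequences were seen. The search was on the gene's strand only. The letters TATAAA, searched for on the same strand from 40 to 10 bases before the start, were present for Snhg5 and Snhg8 and at 1.09% of the starts of genes tested.

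The 7 hosts also share their build. In the GENCODE M21 transcript with the most exons, the longest reading frame from ATG to a stop codon ran from 35 codons in Snhg8 to 66 in Snhg5. In 6 of the 7, all but Snhg5, at least 1 exon junction lay more than 50 bases after that stop codon, the arrangement that nonsense-mediated decay reads. The choice of the transcript with the most exons favors such junctions, and other transcripts and other genes were not searched. For Gas5, Snhg3, Snhg5, Snhg6, and Snhg8 the transcript read had no matched noncoding RefSeq record. Gas5 had 12 exons in 502 spliced bases, with 10 annotated snoRNA genes in its introns, 2 of which are overlapping models of Snord80 and 1 of which carries a microRNA symbol, Mir5117. Snhg1 had 10 exons and 8 snoRNA genes, Snhg12 had 5 snoRNA gene models, Snhg3 and Snhg5 had 2 each, and Snhg6 and Snhg8 had 1 each. All lay in introns of these transcripts. The box C/D snoRNAs of Gas5, Snhg6, and Snhg12 that have rows of their own in the count table are printed from GENCODE M21 with boxes C (TGATGA) and D (CTGA) in capitals, since their counts are given beside those of their hosts.
Snord47, in Gas5 (chr1:161038082-161038158, plus strand): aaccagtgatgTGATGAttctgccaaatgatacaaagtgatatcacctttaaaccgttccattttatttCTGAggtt
Snord87, in Snhg6 (chr1:9942463-9942549, minus strand): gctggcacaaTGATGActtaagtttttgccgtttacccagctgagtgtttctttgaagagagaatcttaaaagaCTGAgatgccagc
Snord99, in Snhg12 (chr4:132310691-132310764, plus strand): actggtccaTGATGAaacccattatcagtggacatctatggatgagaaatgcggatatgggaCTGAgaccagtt

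Libraries held 35838342 and 26564059 counts after vehicle and 32102232 and 244165712 after DCA, so that DCA replicate 2 was by far the deepest. Counts were scaled to library size as TMM-normalized CPM. The quasi-likelihood test of edgeR then set DCA against vehicle for 11184 genes, those whose mean reached 1 CPM. The 12 ILC2 markers listed, among them Gata3, Il1rl1, and Il5, were all tested and summed to between 14402 and 18795 CPM in a library. The sum was carried by Il5, at 7719 to 12321 CPM. Among the 12, Klrg1, which encodes a surface protein used in the sort, was at 688 and 678 CPM after vehicle and at 463 and 356 CPM after DCA (unadjusted p = 0.0154, adjusted p = 0.999, edgeR). Il1rl1, the IL-33 receptor, was at 832 and 876 CPM after vehicle and at 598 and 533 CPM after DCA (unadjusted p = 0.0229, adjusted p = 0.999, edgeR). These 2 of 12 compare with 1.73% of all genes lower at such a p. Il7r, which encodes CD127 of the sort, was at 373 and 350 CPM after vehicle and at 582 and 461 CPM after DCA (unadjusted p = 0.0531, adjusted p = 0.999, edgeR). Of the 12 markers, 6 had log2 fold changes above 0 and 6 below. The markers of T cells summed to 17.0 to 38.7 CPM with 2 of 7 at 0 in every library, those of B cells to 37.7 to 55.1 CPM with 1 of 4 at 0, and those of epithelial cells to 7.73 to 13.5 CPM with 1 of 6 at 0. The markers of mast cells and basophils summed to 0.378 to 4.70 CPM with 2 of 5 at 0, and those of ILC3s to 0 to 1.48 CPM with 3 of 4 at 0. The markers of macrophages and monocytes were at 24.48 and 23.97 CPM after vehicle and at 7.30 and 10.2 CPM after DCA, with 3 of 6 at 0. That sum was carried by Cd68 alone, at 24.3 and 23.97 CPM after vehicle and at 7.30 and 10.1 CPM after DCA. Adgre1 was at 0.219 CPM or less in every library and Lyz2 at 0.0083 CPM or less. The mitochondrially encoded mRNAs took 2.11% and 1.46% of the counts after vehicle and 1.03% and 1.24% after DCA. The part of these differences in the results below was not tested. In bulk RNA, fewer cells of a kind and less RNA per cell cannot be told apart.

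None of the 8 tested genes differed between DCA and vehicle beyond the spread between libraries, and Snhg3 was too low to be tested. In the quasi-likelihood test of edgeR, 0 of the 8 were under 0.05 by adjusted p and 0 by unadjusted p. Over all genes tested, 0 (0%) passed the adjusted and 478 (4.27%) the unadjusted threshold, 284 (2.54%) higher and 194 (1.73%) lower after DCA. For all genes, DESeq2 gave 128 adjusted calls and limma gave 0, and in neither did any of the 8 genes have an unadjusted p under 0.05. The unadjusted p of the 8 genes lay between 0.237 for Neat1 and 0.785 for Snhg12, and each adjusted p was 0.999. The log2 fold change was below 0 for 6 of the 8 genes, as it was for 49.3% of all genes tested. The median of the 8 was -0.39, against 0.0080 over all genes. The libraries of the treatments overlapped for 7 of the 8 genes. For Snhg1 both DCA libraries were below both vehicle libraries, as for 14.7% of all genes tested. DCA replicate 1 was the lowest library for 5 of the 8 genes, and for 23.7% of all genes. With 2 libraries against 2, the smallest two-sided exact permutation p for any gene is 0.333.

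**Figure D1:**
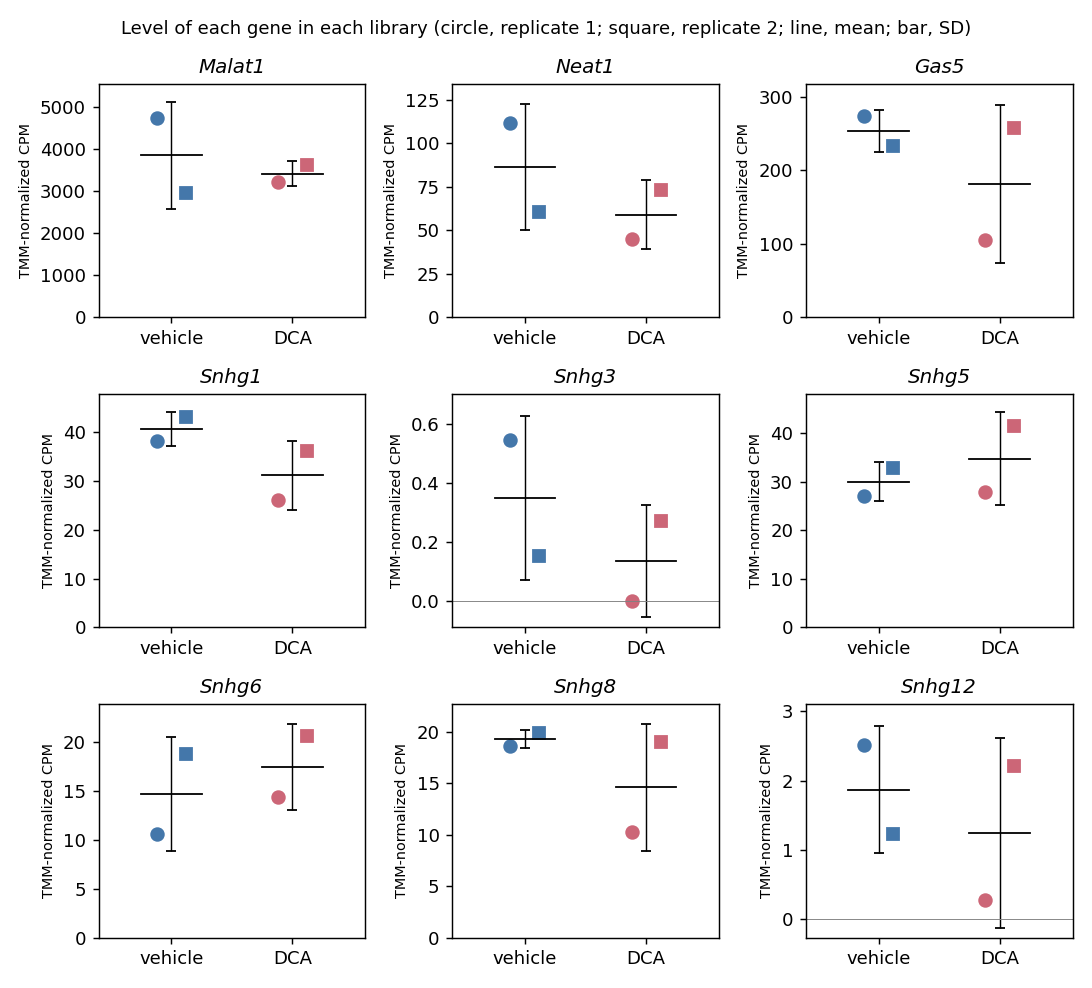
TMM-normalized CPM (y axis, starting at or below 0) of each of the 9 genes in vehicle and DCA libraries, with circles for replicate 1, squares for replicate 2, lines for means, and bars for 1 SD. The groups overlap in every panel except that of Snhg1, and DCA replicate 1 lies below the other libraries for Neat1, Gas5, Snhg1, Snhg3, Snhg8, and Snhg12.

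Malat1 (Entrez gene 72289, chromosome 19, 5795690 to 5802672, minus strand, on GRCm38) had the highest level of the 9 genes per kilobase. It was at 4733 and 2946 CPM after vehicle and at 3197 and 3609 CPM after DCA, and took 0.291% to 0.483% of all counts in a library. Both DCA libraries lay between the vehicle libraries. Its mean was 3840 ± 1264 CPM (SD, n = 2) after vehicle and 3403 ± 292 CPM (SD, n = 2) after DCA. Its log2 fold change was -0.17 (95% interval -0.80 to 0.46), with an unadjusted p of 0.527. Without vehicle replicate 1 it was 0.18.

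Neat1 (Entrez gene 66961, chromosome 19, 5824708 to 5845478, minus strand) lies beside Malat1. It was at 112 and 60.7 CPM after vehicle and at 44.8 and 73.1 CPM after DCA. DCA replicate 2 was above vehicle replicate 2, so that the groups overlapped. The log2 fold change of -0.55 (95% interval -1.56 to 0.47) had the smallest unadjusted p of the 8 genes, 0.237. Leaving out vehicle replicate 1 gave -0.067 and leaving out DCA replicate 1 gave -0.24. Leaving out DCA replicate 2 gave -0.94, and leaving out vehicle replicate 2 gave -0.92, with an adjusted p of 0.443 (unadjusted p = 0.0440, edgeR). The ratio of Malat1 to Neat1 within a library, not divided by length, was 42.3 and 48.5 after vehicle and 71.3 and 49.4 after DCA.

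The cDNA was primed on A-rich sequence, and the main forms of Malat1 and the long form of Neat1 do not end in an ordinary poly(A) tail. The longest A run in each RNA is shown for this reason, with 12 bases to each side and the run in capitals (GENCODE M21, positions counted from 1 at the 5′ end of the RNA).
Malat1, positions 6662 to 6697: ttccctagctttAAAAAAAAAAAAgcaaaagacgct
Neat1, positions 9527 to 9557: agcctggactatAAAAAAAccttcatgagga
The run was of 12 bases in Malat1 and of 7 in Neat1, while in the 7 hosts the longest encoded run was of 7 bases or fewer. How far such runs primed cDNA was not tested.

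Gas5 (Entrez gene 14455, chromosome 1, 161034422 to 161038539, plus strand) had the highest level per kilobase of the 7 hosts, and had 10036 and 6120 counts after vehicle and 3402 and 62090 after DCA. Scaled to library size, it was at 274 and 234 CPM after vehicle and at 105 and 258 CPM after DCA. The second DCA library lay between the vehicle libraries, and only the first was lower. The means were 253.9 ± 28.7 CPM (SD, n = 2) after vehicle and 182 ± 108 CPM (SD, n = 2) after DCA. Gas5 had a log2 fold change of -0.48 (95% interval -1.51 to 0.54) and an unadjusted p of 0.296. The value rested on DCA replicate 1. Without that library it was 0.019, and without DCA replicate 2 it was -1.27, with an adjusted p of 1.00 (unadjusted p = 0.0158, edgeR). In that fit the lone DCA library is assumed to vary as the vehicle libraries do. The gene overlaps 428 bases of Zbtb37 on the opposite strand, and the strand setting of the counting is not given in the sources used here, so that reads in this stretch cannot be assigned to either.

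Snhg1 (Entrez gene 83673, chromosome 19, 8723475 to 8726443, plus strand) was at 38.2 and 43.2 CPM after vehicle and at 26.2 and 36.2 CPM after DCA. Both DCA libraries were lower, although the gap between DCA replicate 2 and vehicle replicate 1 was smaller than the gap between the 2 DCA libraries. Snhg1 had a log2 fold change of -0.38 (95% interval -1.31 to 0.55), with an unadjusted p of 0.355. It stayed below 0 with each library left out, from -0.63 without DCA replicate 2 to -0.18 without DCA replicate 1.

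Snhg8 (Entrez gene 69895, chromosome 3, 123507552 to 123508404, minus strand) was, like Gas5, lowest in DCA replicate 1. It was at 18.7 and 19.9 CPM after vehicle and at 10.3 and 18.98 CPM after DCA. The second DCA library again lay between the vehicle libraries. Its log2 fold change was -0.40 (95% interval -1.80 to 1.01). Leaving out DCA replicate 1 gave -0.028, and leaving out DCA replicate 2 gave -0.91.

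Snhg5 and Snhg6 had log2 fold changes above 0. Snhg5 (Entrez gene 72655, chromosome 9, 88521050 to 88522929, minus strand) was at 27.1 and 32.8 CPM after vehicle and at 27.9 and 41.5 CPM after DCA. DCA replicate 1 fell within the vehicle range and DCA replicate 2 was above it. The log2 fold change was 0.21 (95% interval -0.79 to 1.21), and -0.10 without DCA replicate 2. Snhg6 (Entrez gene 73824, chromosome 1, 9941959 to 9944118, minus strand) was at 10.6 and 18.9 CPM after vehicle and at 14.4 and 20.6 CPM after DCA. Its vehicle libraries differed more than the group means did. Snhg6 had a log2 fold change of 0.25 (95% interval -1.21 to 1.71), and it was below 0 without vehicle replicate 1 (-0.13) and without DCA replicate 2 (-0.030). Snhg6 overlaps 127 bases of Mcmdc2 on the opposite strand.

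Snhg12 and Snhg3, neighbors on chromosome 4, were near the limit of these libraries. Snhg12 (Entrez gene 100039864, 132308623 to 132311024, plus strand) had 92 and 32 counts after vehicle and 9 and 533 after DCA, or 2.51 and 1.22 CPM against 0.278 and 2.21 CPM. The libraries spread over a wide range within each treatment. Its log2 fold change of -0.58 had a 95% interval of -5.49 to 4.34, which allows a large change in either direction, and leaving out DCA replicate 1 gave 0.25, leaving out DCA replicate 2 gave -2.73. Snhg3 (Entrez gene 399101, 132348014 to 132353686, minus strand) had 20 and 4 counts after vehicle and 0 and 65 after DCA, or 0.546 and 0.153 CPM against 0 and 0.270 CPM. It was under the filter and was not tested. The 0 in DCA replicate 1 allows up to 3 counts, or 0.0928 CPM, by counting error alone. Snhg3 lies within Rcc1 on the same strand over 5592 bases, and a split of reads between the 2 genes by the counting is uncertain.

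**Figure D2:**
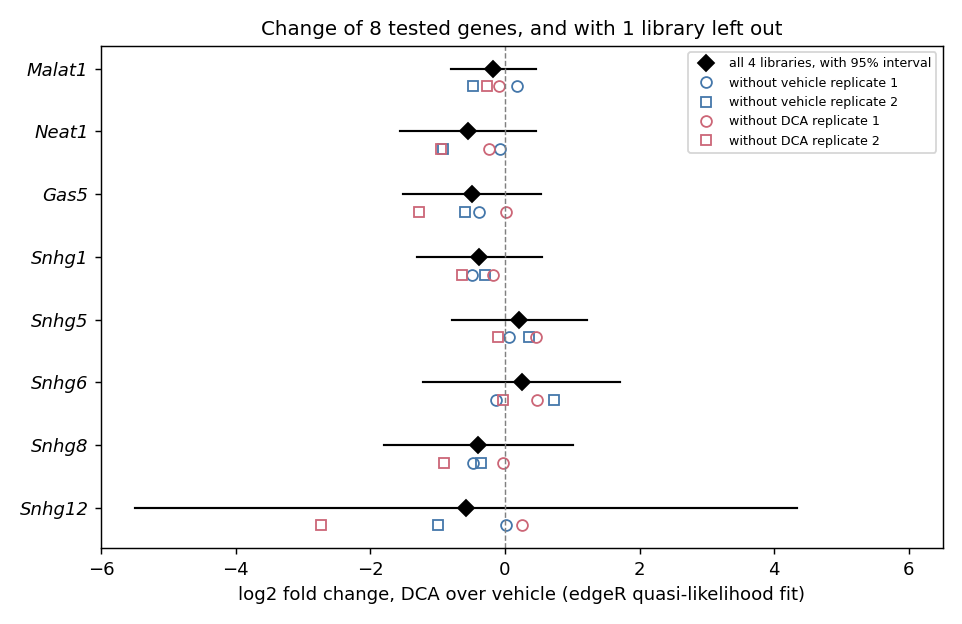
Log2 fold change of DCA over vehicle (x axis) for the 8 tested genes, with black diamonds for all 4 libraries, bars for the 95% interval, and open symbols for the fits that each left out 1 library. Every interval includes 0, and the open symbols of Gas5 run from -1.27 without DCA replicate 2 to 0.019 without DCA replicate 1.

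To order the 9 genes by level, CPM was divided by the length of the annotated exons in kilobases. Malat1 was highest, from 422 to 678 CPM per kilobase, and Gas5 was next, from 27.98 to 72.9 CPM per kilobase over the 4 libraries. Neither range met another. Snhg8 (12.04 to 23.3), Snhg5 (15.7 to 24.01), Snhg6 (9.25 to 18.0), and Snhg1 (8.82 to 14.5 CPM per kilobase) followed, and their ranges overlapped, so that their order was not separated by the spread between libraries. Neat1 was lower, from 2.16 to 5.38 CPM per kilobase when divided by the 20771 bases of its long form. Its short and long forms cannot be told apart in counts per gene. Snhg12 (0.116 to 1.05 CPM per kilobase) was below Neat1 in every library, and its range overlapped that of Snhg3 (0 to 0.554 CPM per kilobase). With the longest transcript as the length, the order of 35 of the 36 pairs of genes by mean level was unchanged, and Snhg5 and Snhg8 changed places.

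The hosts were set against ribosomal protein RNA in the same library, because a ratio within a library does not depend on how libraries are scaled. The 7 hosts summed to 372 and 350 CPM after vehicle and to 184 and 378 CPM after DCA. The 79 ribosomal protein genes summed to 51564 and 71745 CPM after vehicle and to 53682 and 74057 CPM after DCA. Per 1000 CPM of ribosomal protein RNA, the hosts were at 7.21 and 4.87 CPM after vehicle and at 3.43 and 5.10 CPM after DCA. The groups overlapped, since DCA replicate 2 was above vehicle replicate 2. The difference of the mean log2 ratios was -0.50 with a standard error of 0.40. Gas5 made up between 57.1% and 73.7% of the host sum, and with Gas5 left out, a choice made after the data were seen, the ratio was 1.89 and 1.62 after vehicle and 1.47 and 1.62 after DCA. That difference of log2 ratios was -0.18 with a standard error of 0.13. Against 26 protein-coding genes that also carry snoRNAs in their introns, such as Nop56, Ncl, and Hspa8, the 7 hosts were at 16.0 and 12.3 per 1000 CPM after vehicle and at 8.38 and 14.5 after DCA.

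**Figure D3:**
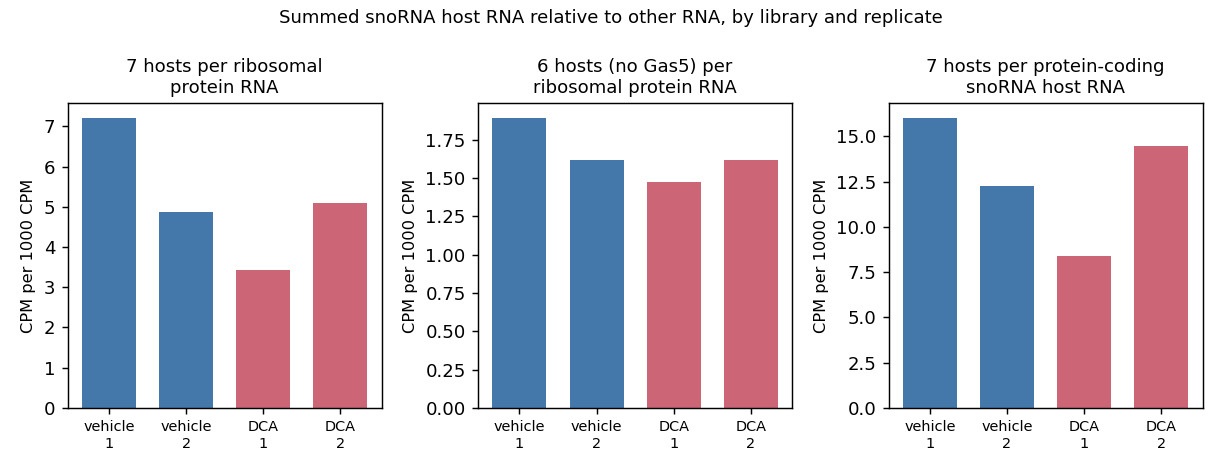
Bars give the summed CPM of the snoRNA hosts per 1000 CPM of ribosomal protein RNA (left, and middle without Gas5) or of protein-coding snoRNA host RNA (right) in each of the 4 libraries. DCA replicate 1 has the lowest bar in each panel, and the bar of DCA replicate 2 is within the range of the vehicle libraries on the left and on the right and at 1.62, as is that of vehicle replicate 2, in the middle.

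The count table also has rows for some of the snoRNAs themselves. Snord47, from Gas5, had 13 and 1 counts after vehicle and 2 and 63 after DCA. Snord22, from Snhg1, had 92 and 34 counts after vehicle and 15 and 244 after DCA, or 2.51 and 1.30 CPM against 0.464 and 1.01 CPM. For Snord22 both DCA libraries were below both vehicle libraries, as for its host and for 14.7% of all genes tested. Snord22 passed the filter, and its log2 fold change of -1.36 (95% interval -6.25 to 3.52) came with an adjusted p of 0.999 (unadjusted p = 0.524, edgeR). Snord87, from Snhg6, was at 0.656 and 0.420 CPM after vehicle and at 0.959 and 0.648 CPM after DCA. Snord99, from Snhg12, had 13 and 9 counts after vehicle and 6 and 51 after DCA, or 0.355 and 0.344 CPM against 0.186 and 0.212 CPM, with both DCA libraries lower. Snord99 was under the filter and was not tested. Also from Snhg12, Snora61 had 24 counts and Snora16a 4 counts in DCA replicate 2, the deepest library, and 0 in every other library. Snora44, from Snhg12 too, was at 0 in every library. Snora24, the snoRNA of Snhg8, was listed at 0 in every library. Mature snoRNAs have no poly(A) tail, and reads counted here may come from unspliced host RNA, which the table does not separate.

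Snhg3 carries 2 near-identical H/ACA snoRNAs, which illustrate the limit of such rows. They are printed from GENCODE M21, with capitals at the 7 of 205 positions where they differ (96.6% identical).
Snora73a (chr4:132352775-132352979, minus strand): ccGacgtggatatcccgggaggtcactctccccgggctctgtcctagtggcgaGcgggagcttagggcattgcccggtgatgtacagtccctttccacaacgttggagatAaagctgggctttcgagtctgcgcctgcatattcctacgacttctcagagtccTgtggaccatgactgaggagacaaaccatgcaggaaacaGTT
Snora73b (chr4:132352322-132352526, minus strand): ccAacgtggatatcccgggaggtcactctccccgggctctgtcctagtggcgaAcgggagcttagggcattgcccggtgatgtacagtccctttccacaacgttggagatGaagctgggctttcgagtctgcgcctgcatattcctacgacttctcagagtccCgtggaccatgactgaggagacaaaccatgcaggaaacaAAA
Snora73a had 52 and 55 counts after vehicle and 6 and 252 after DCA, or 1.42 and 2.10 CPM against 0.186 and 1.05 CPM. Both DCA libraries were lower, as for 14.7% of all genes tested. The log2 fold change of -1.50 (95% interval -6.73 to 3.72) had an adjusted p of 0.999 (unadjusted p = 0.511, edgeR). Snora73b was listed at 0 in all 4 libraries. How the counting placed reads that match both is not given in the sources used here, so the split between them is uncertain.

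Other genes of the pathway were taken from fixed lists. Of 13 further noncoding snoRNA hosts, 9 were tested, and in the edgeR test 0 had an unadjusted p under 0.05. Their median log2 fold change was -0.38, with 4 above 0 and 5 below. Both DCA libraries were below both vehicle libraries for 3 of them, Snhg4, Snhg17, and Zfas1, and above for 2, Dancr and Epb41l4aos. Over all genes tested, 14.7% lay below in this way and 18.6% above. Zfas1, the host that lies antisense to the start of Znfx1, was at 24.05 and 27.3 CPM after vehicle and at 10.5 and 22.35 CPM after DCA. Snhg15 was at 32.9 and 29.3 CPM after vehicle and at 29.7 and 33.1 CPM after DCA. Among the 26 protein-coding hosts, 0 had an unadjusted p under 0.05, 7 were above 0 and 19 below, and the median log2 fold change was -0.056. The 78 ribosomal protein genes tested had a median of 0.091, with 58 above 0, 20 below, and 0 at an unadjusted p under 0.05.

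Genes of the decay machinery and known decay targets were found on both sides of 0. Of 24 factors of nonsense-mediated decay and decapping, 13 had log2 fold changes above 0 and 11 below, with a median of 0.019. Smg8, a regulator of the kinase that phosphorylates UPF1, was at 8.36 and 8.44 CPM after vehicle and at 22.7 and 22.1 CPM after DCA (log2 fold change 1.42, unadjusted p = 0.0440, adjusted p = 0.999, edgeR). Dcp1a, a decapping cofactor, was at 50.3 and 22.1 CPM after vehicle and at 9.15 and 14.4 CPM after DCA (log2 fold change -1.62, unadjusted p = 0.0319, adjusted p = 0.999, edgeR). Leaving out vehicle replicate 1 moved Dcp1a to -0.94. These 2 of 24 compare with 4.27% of all genes at such a p, and neither passed the adjusted threshold. Upf1, the central helicase of the pathway, was at 29.5 and 16.7 CPM after vehicle and at 26.7 and 24.2 CPM after DCA. Of the 6 tested mRNAs known as decay targets, 2 had log2 fold changes above 0 and 4 below. Ddit3 alone had an unadjusted p under 0.05 (log2 fold change 1.87, unadjusted p = 0.0113, adjusted p = 0.999, edgeR). This 1 of 6 compares with 4.27% of all genes at such a p, and the reason for its level was not tested. Atf4, at 60.3 and 80.8 CPM after vehicle and 51.4 and 74.8 CPM after DCA, and Gadd45b, at 119 and 86.0 CPM after vehicle and 91.4 and 105 CPM after DCA, overlapped between the treatments. For Cdkn1a, which encodes the cell cycle inhibitor p21, the libraries did not overlap, at 143 and 188 CPM after vehicle and 214 and 189 CPM after DCA, with a log2 fold change of 0.28 and an adjusted p of 0.999 (unadjusted p = 0.300, edgeR). Of 19 snoRNP and snoRNP assembly genes tested, 0 had an unadjusted p under 0.05, with 7 above 0, 12 below, and a median of -0.12. Nop56, a core protein of box C/D snoRNPs, was at 390.3 and 529 CPM after vehicle and at 419.5 and 492 CPM after DCA.

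Partners of the nuclear RNAs were lower at the unadjusted level in a few cases. Of 13 paraspeckle protein genes, 3 were above 0 and 10 below, with a median log2 fold change of -0.13. Sfpq, an essential paraspeckle protein that binds Neat1, was at 118 and 188 CPM after vehicle and at 75.9 and 91.6 CPM after DCA. Its log2 fold change was -0.87, with an adjusted p of 0.999 (unadjusted p = 0.0322, edgeR), and leaving out vehicle replicate 2 moved it to -0.49. Tardbp, which encodes the RNA-binding protein TDP-43, had a log2 fold change of -0.71 (unadjusted p = 0.0448). Nono, the dimer partner of SFPQ, was at 444 and 455 CPM after vehicle and at 426 and 471 CPM after DCA. Of 11 nuclear speckle genes, 2 were above 0 and 9 below, with a median of -0.13. Srsf1, a splicing factor of speckles, had a log2 fold change of -0.82 (unadjusted p = 0.0215), and Prpf8, a core protein of the spliceosome, one of -0.91 (unadjusted p = 0.0119). At an unadjusted p under 0.05 and lower after DCA there were 2 of 13 and 2 of 11 genes, against 1.73% of all genes tested. None of these 4 genes passed the adjusted threshold, and their log2 fold changes stayed below 0 with each library left out.

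Among 22 other long noncoding RNAs, 17 were in the table and 13 were tested, with 9 above 0, 4 below, and a median log2 fold change of 0.41. Kcnq1ot1, the antisense RNA that silences genes of the Kcnq1 imprinted domain, was at 91.3 and 85.7 CPM after vehicle and at 40.1 and 42.3 CPM after DCA. Its libraries agreed closely within each treatment and were well apart between them. The log2 fold change was -1.10 (95% interval -1.80 to -0.40), with an adjusted p of 0.999 (unadjusted p = 0.00807, edgeR). It was between -1.15 and -1.07 with each library left out. Kcnq1ot1 runs antisense within Kcnq1, so reads of either strand may be counted on it. Tug1 was at 76.9 and 92.6 CPM after vehicle and at 149 and 90.7 CPM after DCA, and Norad at 83.5 and 46.3 CPM after vehicle and at 39.2 and 43.3 CPM after DCA. Of the 12 tested mitochondrially encoded mRNAs, all 12 had log2 fold changes below 0, with a median of -0.61, and 3 (CYTB, COX1, and ND1) had p under 0.05 unadjusted and 0.999 adjusted in the edgeR test, against 1.73% of all genes lower at such a p. Without vehicle replicate 1 the log2 fold change of COX1 went from -0.71 to -0.33, and without DCA replicate 1 that of ND1 went from -0.63 to -0.38. Vehicle replicate 1 was highest in these mRNAs as a sum (20683 CPM, against 10242 to 14797 CPM in the others) and in Malat1 and Neat1 as well.

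**Figure D4:**
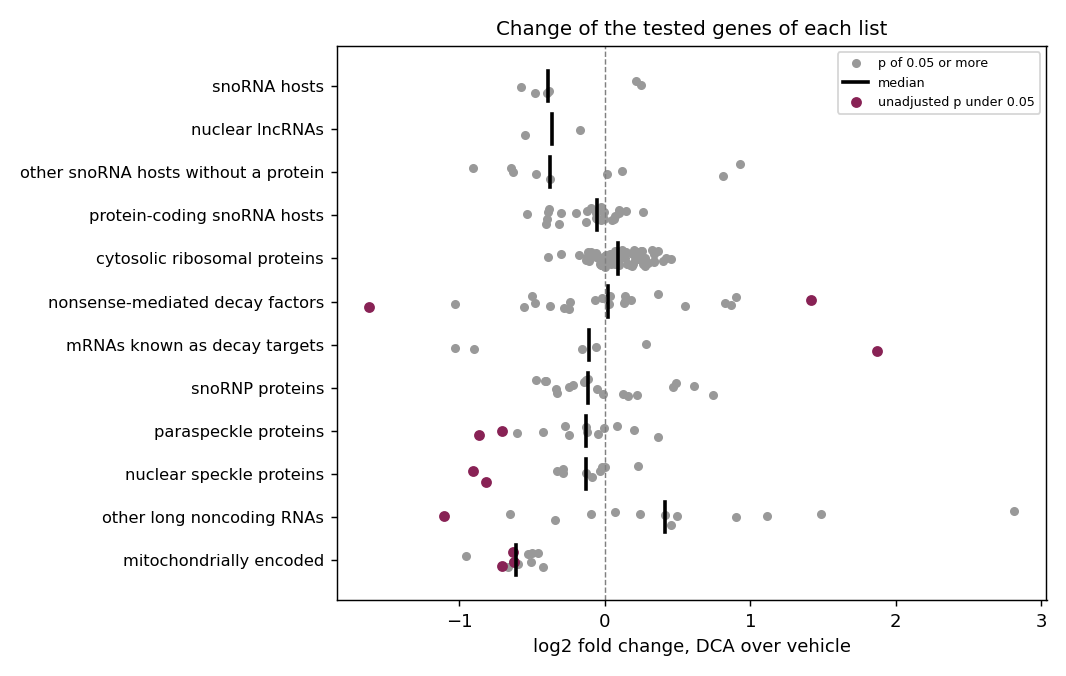
Each point is the log2 fold change (x axis) of 1 tested gene of a list (rows), with purple for an unadjusted p under 0.05, gray for the rest, and a black line for the list's median. No gene of the 3 lists of snoRNA hosts is purple, and all 12 mitochondrially encoded mRNAs lie below 0.

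The profile of the 7 hosts over the 4 libraries, averaged as log2(CPM + 1) centered on each gene's mean, was 0.12 and 0.12 after vehicle and -0.50 and 0.26 after DCA. The tested genes nearest to it by Euclidean distance over these 4 libraries were Mef2a (distance 0.054), Scnm1 (0.055), and Ubr1 (0.070). Scnm1 was at 52.4 and 53.6 CPM after vehicle and at 34.9 and 56.8 CPM after DCA. The likeness rests mainly on DCA replicate 1 being low, and 4 libraries give no test of it.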

How the data were processed

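Full-length cDNA of cultured ILC2s was made with the SMART-Seq HT kit, which primes on poly(A), and sequenced as paired reads of 150 bases. Read filtering (cutadapt 1.9) and alignment (HISAT2 2.2.1, genome mm10) were done by the authors, who tested genes with DESeq2. The counting tool, annotation, and strand setting are not given in the sources used here. The deposited values are whole-number counts per gene, despite a file name that mentions FPKM. The 1275 rows without a symbol were kept under their Entrez identifiers.

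Libraries were assigned by title. edgeR 4.0.16 (R 4.3.3; TMM, quasi-likelihood test, two-sided, Benjamini-Hochberg over all genes tested) was fitted to 11184 genes whose mean reached 1 CPM. The 95% intervals are approximate, from the quasi-likelihood F statistic, and include the spread between libraries. Limits for counts of 0 use 3 counts and cover counting error only, in amplified reads without molecular identifiers. Depth ranged from 26564059 to 244165712 counts. The fit was tested on simulated counts in which 200 genes were given a log2 fold change of 2, up or down. With the spread estimated from these libraries, 93 genes had an adjusted p under 0.05 in the edgeR test, and 86 of them were among the 200. With a twentieth of that spread, the numbers were 199 and 186. Coordinates and exons are from GENCODE M21 (GRCm38), start sites from RefSeq on GRCm38.p6. For a host the transcript with the most exons was read, for Malat1 and Neat1 the longest.

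The members and lists were chosen with earlier results of these data known. The genes named are the 9 members and, per list, those at an unadjusted p under 0.05 and among the most abundant, with the 3 nearest profiles. Zfas1, Upf1, Il5, Il7r, Adgre1, Lyz2, Snhg4, Snhg17, Dancr, Epb41l4aos, Scnm1 and the snoRNA rows were described after their values were seen. Alternatives were DESeq2 1.42.0, limma 3.58.1 on log2(CPM + 1), scaling by total counts or by median of ratios, no filter, a mean of at least 5 CPM, filterByExpr, the replicate number as a block, DCA replicate 2 thinned to 32100284 counts, and each library left out. Replicate numbers were not treated as pairs in the main fit. Libraries with the same number deviated from their group means with a correlation of 0.020 across 11184 genes. With 2 libraries per treatment, this value cannot show whether they shared a mouse, a sort, or a day.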

Additional observations from a re-analysis of the deposited data

How the results depend on the processing

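At an adjusted p under 0.05, the edgeR test called 0 genes. The number was 128 with DESeq2, 36 without a filter on low counts, and 0 to 20 with 1 library left out, with 20 without vehicle replicate 1. The count was 0 under the other alternatives. The cause was not tested. Of the 9 genes, 0 had an unadjusted p under 0.05 with all 4 libraries under any alternative, and 0 to 1 with 1 library left out (Neat1 without vehicle replicate 2, Gas5 without DCA replicate 2). Across the fits that left out 1 library, the log2 fold change ran from -1.27 to 0.019 for Gas5, from -0.10 to 0.46 for Snhg5, from -0.13 to 0.73 for Snhg6, from -2.73 to 0.25 for Snhg12, and from -0.47 to 0.18 for Malat1, so that the direction of these 5 genes depended on the libraries used, while Neat1, Snhg1, and Snhg8 stayed below 0. No other alternative turned the direction of any of the 8 tested genes. Without a filter, Snhg3 was at a log2 fold change of -1.33, with an adjusted p of 0.974 (unadjusted p = 0.752, edgeR). The difference of the hosts' log2 ratio to ribosomal protein RNA ran from -0.79 to -0.22 with 1 library left out and was -0.35 against protein-coding snoRNA hosts. With the longest transcript as the length, 35 of 36 pairs of genes kept their order. With the replicate number as a block, 0 genes had an adjusted p under 0.05, and Gas5 was at -0.62 (log2 fold change, unadjusted p = 0.129, edgeR), so that the block changed no adjusted call. Unadjusted p with the block was 0.0562 for Dcp1a and 0.0873 for Smg8 in edgeR, both past 0.05. For Smg8 the edgeR p was also past 0.05 without a filter (0.0817), with a mean of at least 5 CPM (0.0559), and with filterByExpr (0.0509). So were those of CYTB without a filter (0.0514, edgeR) and of ND1 with filterByExpr (0.0579, edgeR). Other scalings moved the median of all genes by 0.028 or less on the log2 scale. With 2 libraries per treatment, intervals as wide as those of Snhg12, Snhg6, and Snhg8 do not exclude changes of more than 2-fold in either direction.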
